A study of Mus musculus with 10 samples.

Results

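The glucocorticoid signalling genes followed here were Fkbp5, Fkbp4, Nr3c1, Nr3c2, Tsc22d3, Sgk1, Hsd11b1, Crhr1, Crhbp and Zbtb16. They were taken by gene symbol from the non-control probes of a whole mouse genome array. Of the 10 genes, 9 were matched by 19 probes, out of 41174 probes and 18539 named genes on the array, and Zbtb16 is named only. RNA from the hemibrain of 10 male C57BL/6J mice was labeled with Cy-5, 1 mouse per array, and hybridized against another RNA in Cy-3 on 10 arrays across 4 slides. The mice were single-housed from 3 weeks of age, stayed on a fish oil enriched diet (FD) or a standard lab diet (SD) for about 20 weeks, and were 5 months old when the left hemibrain was taken. The diet of each array is not settled. The diet entries give FD for all 10 Cy-5 samples, the sample descriptions call the same samples controls, and the methods describe 4 FD and 3 SD arrays. The RNA in Cy-3 is likewise described as pooled SD hemibrain RNA by the labels and as a purchased reference RNA by the methods. No FD against SD comparison was therefore made, all 10 arrays were treated as hemibrain, and the ratio of Cy-5 to Cy-3 carries no diet direction. The markers on the arrays go against the description of Cy-3 as hemibrain RNA. All 5 neuronal, all 5 astrocyte and all 5 oligodendrocyte markers were called higher in Cy-5, with median log2 ratios of 6.28, 6.65 and 5.35, and all 15 passed the software's flag for signal above background in Cy-5. With bulk hemibrain RNA, fewer cells of a type and less RNA per cell cannot be told apart.

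Corticosterone, the main glucocorticoid of the mouse, acts in the brain through the glucocorticoid receptor (Nr3c1) and the mineralocorticoid receptor (Nr3c2). Both are held ready for hormone by a chaperone complex built on heat shock proteins, in which the immunophilins Fkbp5 and Fkbp4 compete for the same place. Fkbp5 lowers the hormone affinity of the glucocorticoid receptor, whereas Fkbp4 favours its move into the nucleus, and the activated receptor raises Fkbp5 transcription in turn, which closes a short feedback loop. Tsc22d3, Sgk1 and Zbtb16 are further genes that glucocorticoids induce. Hsd11b1 regenerates active hormone inside cells, and Crhr1 and Crhbp are the main receptor and a secreted binding protein of corticotropin-releasing hormone, which starts the stress axis.

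The receptor binds a palindrome built from the hexamer AGAACA and its reverse complement TGTTCT, with any 3 bases between them. One start-site window of each of 3 genes is printed in the orientation of the gene, from 250 bases before the start to 50 bases after it (RefSeq, GRCm38.p6). Sgk1 and Tsc22d3 are induced by the receptor, and Fkbp5 is the gene the others were compared with. Of the 6 windows of Sgk1 and the 3 of Tsc22d3, the printed one is that with the most hexamers. Capitals mark the hexamer on either strand (TGTTCT is AGAACA read on the other strand).
Sgk1, chr10:21993640-21993939, plus strand: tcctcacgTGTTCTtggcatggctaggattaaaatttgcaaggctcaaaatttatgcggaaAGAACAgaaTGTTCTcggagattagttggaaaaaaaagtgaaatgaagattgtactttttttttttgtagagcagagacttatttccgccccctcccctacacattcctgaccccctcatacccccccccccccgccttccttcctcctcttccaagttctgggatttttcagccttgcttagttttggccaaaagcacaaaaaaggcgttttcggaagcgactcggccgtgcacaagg
Tsc22d3, chrX:140600473-140600772, minus strand: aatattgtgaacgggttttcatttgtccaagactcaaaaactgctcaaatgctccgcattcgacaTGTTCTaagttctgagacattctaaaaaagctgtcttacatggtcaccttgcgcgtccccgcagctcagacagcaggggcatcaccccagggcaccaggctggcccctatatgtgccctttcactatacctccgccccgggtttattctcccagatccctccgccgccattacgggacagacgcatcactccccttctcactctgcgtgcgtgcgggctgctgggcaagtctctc
Fkbp5, chr17:28486100-28486399, minus strand: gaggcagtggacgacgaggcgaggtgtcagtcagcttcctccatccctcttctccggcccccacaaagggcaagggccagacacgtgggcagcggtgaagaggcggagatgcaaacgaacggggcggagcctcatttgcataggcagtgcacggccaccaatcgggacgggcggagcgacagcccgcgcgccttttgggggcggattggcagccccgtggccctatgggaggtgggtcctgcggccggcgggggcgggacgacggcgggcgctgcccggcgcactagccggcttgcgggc
The printed Sgk1 window held the full palindrome and 1 further hexamer upstream of it, and no other Sgk1 window held the palindrome. That palindrome occurred in 3 of 32851 windows of the same length (0.01%), from 27025 genes. The printed Tsc22d3 window held 1 hexamer, the other Tsc22d3 windows held none, and the Fkbp5 window held none. A window table entry was found for 8 of the 10 genes, with 15 windows in all, of which 6 belonged to Sgk1 and 3 to Tsc22d3. The hexamer was in 4 of the 15 windows (26.7%), 3 of Sgk1 and 1 of Tsc22d3, beside 18.97% of all windows. The windows of Fkbp4, Nr3c2, Hsd11b1, Crhr1 and Crhbp held none. These matches describe the letters within 300 bases of a start site and say nothing of binding, and elements elsewhere in these genes were not searched.

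The brightest probe of all 9 measured genes passed the scanner software's flag for signal well above background on every array in the Cy-5 channel. Against the RNA in Cy-3, the 10 arrays gave 6 genes higher and 3 genes lower by their brightest probe, the one with the highest mean log2 signal over both dyes and all arrays, at an adjusted p below 0.05. Over all 18539 genes, 41.0% were called higher and 39.8% lower, so a call by itself did not set a gene apart. Of the 8 genes whose brightest probe passed that flag in both dyes, 5 were higher and 3 lower, beside 44.0% and 43.3% of 11371 such genes. Adjusted p-values of these ratios are from limma over all probes and test the mean ratio against 0. They take the spread between these 10 arrays as error and, without a dye swap, do not cover a bias between the dyes. Values are log2 of Cy-5 over Cy-3, with the median of all genes at 0.04. Between arrays, r over probes was 0.87 to 0.967 in the 45 pairs. Among all 19 probes, 10 were called higher and 6 lower, beside 37.4% and 39.5% of all probes. Both dyes passed the flag on every array for 13 of them, and of these 7 were called higher, 4 lower and 2 neither way.

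**Figure D1:**
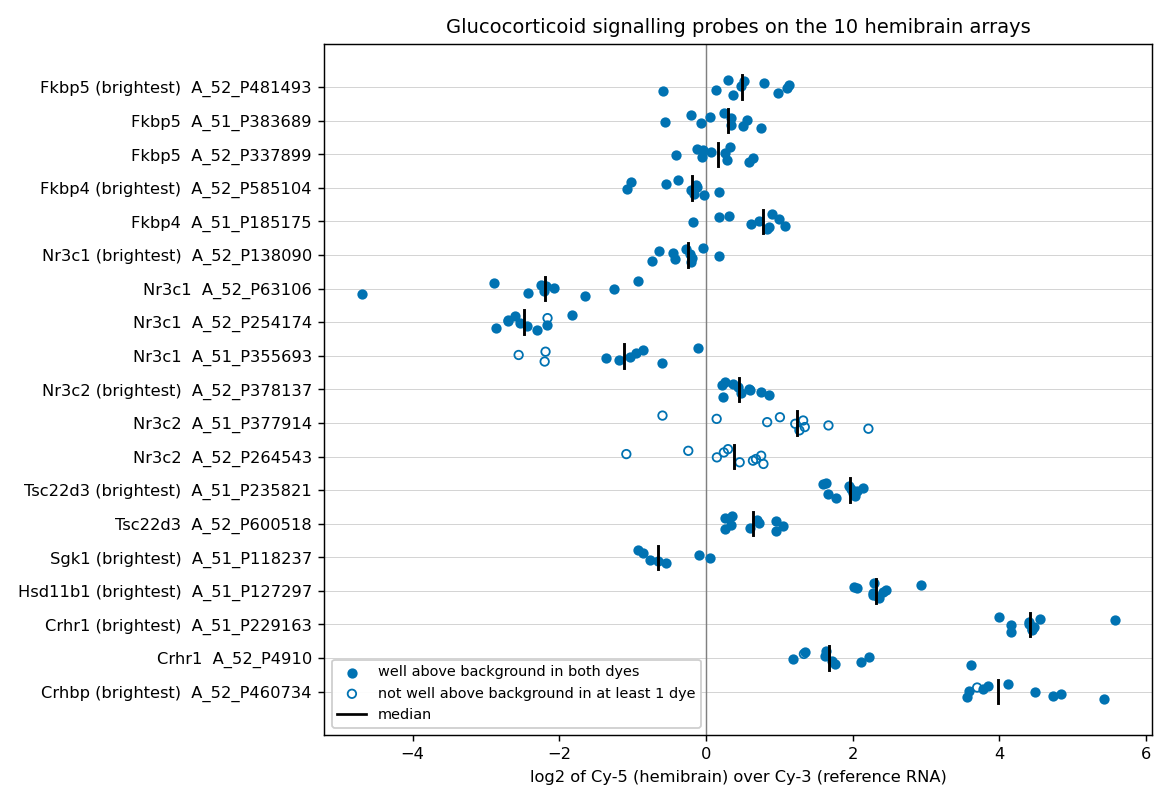
The log2 ratio of Cy-5 (hemibrain) over Cy-3 of each of the 19 probes (rows), with 1 point per array and a black bar at the median. Open points were not well above background in at least 1 dye, and the 3 outlier-flagged Sgk1 spots are left out. Crhr1 and Crhbp lie farthest right, and probes of Nr3c1 and of Fkbp4 lie apart from each other.

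Fkbp5 itself was measured by 3 probes, all annotated to the same transcript record. The brightest, A_52_P481493, ranged from -0.59 on C10-416 through a median of 0.50 to 1.13 on C10-425, and was above 0 on 9 of 10 arrays. Its mean was 0.52 ± 0.15 (SE, n = 10), a 1.44-fold higher signal in Cy-5 (adjusted p = 0.00749, limma). The probe A_51_P383689 ranged from -0.56 on C10-423 through a median of 0.29 to 0.75 on C10-413 (mean 0.19 ± 0.12, adjusted p = 0.155). The probe A_52_P337899 ranged from -0.40 on C10-423 through a median of 0.16 to 0.64 on C10-416 (mean 0.15 ± 0.10, adjusted p = 0.191). The loess alternative moved the median of all genes up by 0.19, and under it both of these probes were called higher as well, at 0.44 (adjusted p = 0.00384) and 0.35 (adjusted p = 0.00689).

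The spread between animals of the brightest Fkbp5 probe was wide. Its SD over the arrays was 0.52 on the log2 scale. This exceeded the SD of 90.6% of the probes that passed the flag in Cy-5 throughout. The share was 78.3% for A_51_P383689 and 65.4% for A_52_P337899. With each channel scaled by its 75th percentile on each array, log2 Cy-5 had an SD of 0.51 and log2 Cy-3 an SD of 0.04. The Cy-5 signal of this probe went from 678 to 2410, before such scaling.

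The 3 probes did not order the animals alike. Animal C10-423 had 1.11 on the brightest probe, close to the highest value, and the lowest value of all on both other probes. Animal C10-416 had the lowest value on the brightest probe and the highest on A_52_P337899. The brightest probe gave r = -0.22 with A_51_P383689 (permutation p = 0.53, rho = -0.09, p = 0.812) and r = -0.61 with A_52_P337899 (permutation p = 0.0573, rho = -0.50, p = 0.143), over 10 arrays. The other 2 probes followed each other, with r = 0.86 (permutation p = 0.00158, rho = 0.76, p = 0.0152), and r = 0.70 without C10-423 and C10-435, the 2 arrays farthest from the median (exact permutation p = 0.0522, n = 8). Centred within the 2 slides of 4 arrays, these 3 correlations were -0.26, -0.63 and 0.87. The sequences of the probes were not used here, so which part of the transcript each probe reads was not tested.

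**Figure D2:**
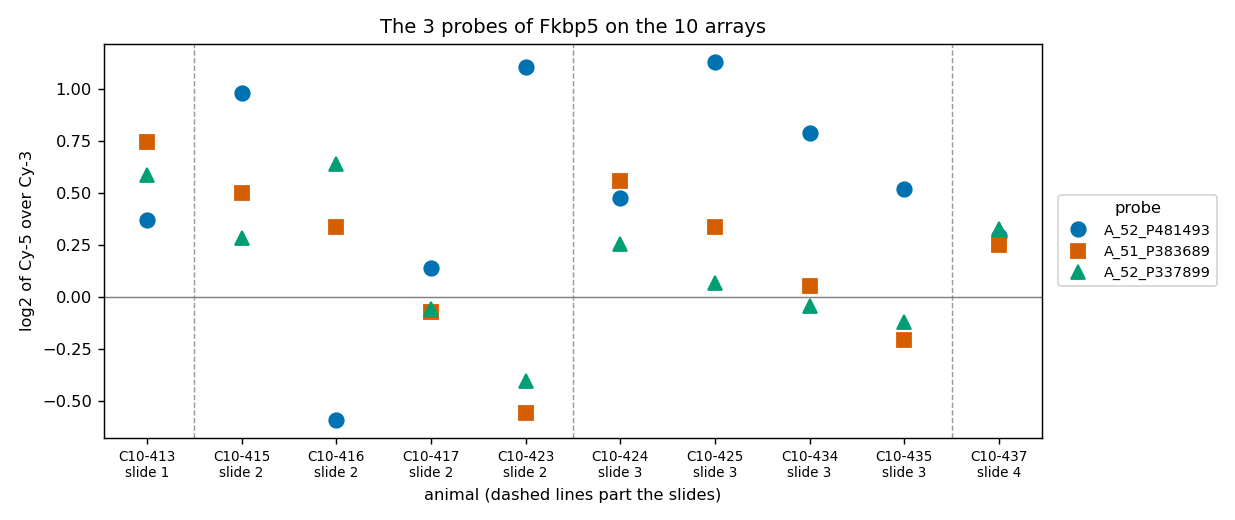
The log2 ratio of the 3 Fkbp5 probes (colours and shapes) on each array, named by animal and slide, with dashed lines between slides. The circles of A_52_P481493 are at the bottom on C10-416 and near the top on C10-423, where the squares of A_51_P383689 and the triangles of A_52_P337899 are at their lowest.

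Fkbp4, the immunophilin that competes with Fkbp5 in the receptor complex, was read by 2 bright probes. The brightest, A_52_P585104, ranged from -1.08 on C10-423 through a median of -0.19 to 0.18 on C10-416, with a mean of -0.35 ± 0.13 (SE, adjusted p = 0.0215). The probe A_51_P185175 ranged from -0.17 on C10-423 through a median of 0.78 to 1.08 on C10-416, with a mean of 0.63 ± 0.12 (adjusted p = 0.000397). The 2 probes thus gave opposite directions against Cy-3, so that the direction counted for Fkbp4 depended on the choice of probe, and the call of the first was lost under loess (-0.20, adjusted p = 0.161). They ordered the animals alike, with r = 0.88 over 10 arrays (permutation p = 0.00184, rho = 0.75, p = 0.017) and r = 0.75 without C10-423 and C10-435 (exact permutation p = 0.0353, n = 8).

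The glucocorticoid receptor Nr3c1 was read by 4 probes that lay far apart. The brightest, A_52_P138090, ranged from -0.74 on C10-415 through a median of -0.24 to 0.17 on C10-423, with a mean of -0.30 ± 0.09 (adjusted p = 0.00886), and its call was lost under loess (-0.16, adjusted p = 0.102). The probe A_52_P63106 ranged from -4.69 on C10-415 through a median of -2.20 to -0.93 on C10-437, and its mean of -2.26 was 0.209 of the Cy-3 signal (adjusted p = 9.91e-06). All 4 probes were called lower in Cy-5, by sizes between -0.30 and -2.43. The sizes of the other 3 probes depended on the background correction, and for A_52_P63106 the mean was -1.13 with normexp and -1.49 with a floor on the background-subtracted signal. The probe A_51_P355693 missed the flag in Cy-5 on 3 of 10 arrays, and A_52_P254174 on 1 of 10.

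The mineralocorticoid receptor Nr3c2 was higher in Cy-5 on all 10 arrays by its brightest probe, A_52_P378137. Its ratio ranged from 0.22 on C10-434 through a median of 0.45 to 0.86 on C10-415, with a mean of 0.48 ± 0.08 (adjusted p = 0.000116). Both dyes of this probe, scaled in the same way, varied more than the ratio did, with SDs of 0.42 in log2 Cy-5 and 0.51 in log2 Cy-3 against 0.22. The other 2 Nr3c2 probes were not well above background in Cy-3 on any array, and in Cy-5 on 2 arrays or none, so that no fold is given for them.

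The induced gene Tsc22d3, which encodes the leucine zipper protein GILZ, was higher in Cy-5. Its brightest probe, A_51_P235821, ranged from 1.59 on C10-435 through a median of 1.97 to 2.14 on C10-425, and its mean of 1.89 ± 0.08 was a 3.7-fold higher signal in Cy-5 (adjusted p = 8.14e-11). Its SD of 0.20 was the smallest of the 19 probes. Of the probes that passed the flag in Cy-5 throughout, 22.2% had a smaller one. The second probe, A_52_P600518, gave a smaller mean of 0.62 ± 0.10 (adjusted p = 7.13e-05), with a range from 0.26 to 1.06. Both probes were above 0 on all 10 arrays, and their order of the animals was not alike (r = 0.35, permutation p = 0.312, rho = 0.26, p = 0.468).

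Sgk1, a kinase that raises the surface density of epithelial sodium channels, was lower in Cy-5. Its probe, A_51_P118237, was flagged as an outlier spot on C10-413, C10-424 and C10-435, and on the other 7 arrays it ranged from -0.93 on C10-437 through a median of -0.66 to 0.06 on C10-423. The mean was -0.54 ± 0.14 (SE, n = 7, adjusted p = 0.00507), and -0.43 over 10 arrays with the flagged spots kept (adjusted p = 0.0103). The flagged spots read 0.15, 0.16 and -0.78, so that 2 of them lay above all 7 others.

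Hsd11b1, the reductase that regenerates corticosterone, ranged from 2.02 on C10-434 through a median of 2.32 to 2.93 on C10-435. Its mean of 2.34 ± 0.09 was a 5.08-fold higher signal in Cy-5 (adjusted p = 3.67e-11), and it was above 0 on all 10 arrays. Its Cy-5 signal ranged from 3060 on C10-434 to 8370.

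The 2 genes of corticotropin-releasing hormone signalling had the highest ratios of the 9. The receptor Crhr1 ranged on its brightest probe, A_51_P229163, from 4.00 on C10-437 through a median of 4.42 to 5.58 on C10-434, with a mean of 4.46 ± 0.13, a 22-fold higher signal in Cy-5 (adjusted p = 3.74e-12). The binding protein Crhbp ranged from 3.56 on C10-415 through a median of 3.98 to 5.43 on C10-413, with a mean of 4.21 ± 0.18, an 18.5-fold higher signal (adjusted p = 1.94e-10). Both genes were above 0 on all 10 arrays. For Crhbp, which was not well above background in Cy-3 on 1 array, the mean was 2.39 with normexp, and for Crhr1 it was 3.63. With the channels scaled by their 75th percentiles, both genes varied more between arrays in Cy-3 than in Cy-5, with SDs of log2 Cy-3 of 0.38 for Crhr1 and 0.57 for Crhbp against 0.14 and 0.23 for log2 Cy-5. Array C10-434, where Crhr1 was highest, was the dimmest. On it 49.8% of probes passed the flag in Cy-5 against 68.2% to 76.9% on the others, and the mean of Crhr1 without it was 4.34. The second Crhr1 probe, A_52_P4910, gave a mean of 1.86 ± 0.20 (adjusted p = 1.87e-06), or 0.65 with normexp, and reached 3.61 on C10-413.

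The 2 slides that held 4 arrays each were compared to see whether the genes moved with the slide. None of the 19 probes was called, beside 0.0754% of 41122 probes (31 probes), and 2 had an unadjusted p below 0.05, beside 9.90% of all probes. The smallest p belonged to Nr3c2 A_51_P377914 (second slide minus first -0.78, adjusted p = 0.42), which was near background, followed by Crhbp (-0.68 ± 0.27, adjusted p = 0.446). For the brightest Fkbp5 probe the slides differed by 0.32 ± 0.37 (adjusted p = 0.935), less than the spread within slides.

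Co-variation with Fkbp5 over the 10 animals was examined next, since Fkbp5 is both a target and a regulator of the receptor. The 8 other genes were correlated with each of the 3 Fkbp5 probes, which makes 24 relations, and the same relation was fitted with limma for 12132 genes so that p-values were adjusted over all genes. With the brightest Fkbp5 probe, none of the 8 genes was called (adjusted p of 0.857 or above), beside 0.00% of 12132 genes, while 374 genes (3.08%) had an unadjusted p below 0.05. The largest positive correlations were with the induced genes Tsc22d3 and Sgk1, and the largest negative ones with Crhbp and Fkbp4. Tsc22d3 gave r = 0.66 (permutation p = 0.0347, rho = 0.64, p = 0.0547), r = 0.71 within slides, and r = 0.48 without C10-416 and C10-425, the 2 arrays farthest from the median (exact permutation p = 0.229, n = 8). With any 1 array left out, r of Tsc22d3 was 0.58 to 0.77. Its p was also above 0.05 under loess, normexp, the background floor, slide as a term, the mean over all probes of a gene, and without C10-434, and the second Tsc22d3 probe gave r = -0.17. In Cy-5 signal alone, scaled by the 75th percentile of each array, Tsc22d3 gave r = 0.78 (permutation p = 0.0057). Sgk1 gave r = 0.58 over 7 arrays (exact permutation p = 0.176, rho = 0.64, p = 0.139), and r = 0.34 over 10 arrays with the flagged spots kept (permutation p = 0.349). Crhbp gave r = -0.50 (permutation p = 0.146, rho = -0.56, p = 0.0957), but r = 0.14 with normexp. Fkbp4 gave r = -0.49 (permutation p = 0.154, rho = -0.42, p = 0.232), but r = 0.53 when the mean over all probes of each gene was used. The receptors Nr3c1 (r = -0.07) and Nr3c2 (r = 0.12), Hsd11b1 (r = -0.12) and Crhr1 (r = 0.13) lay near 0.

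**Figure D3:**
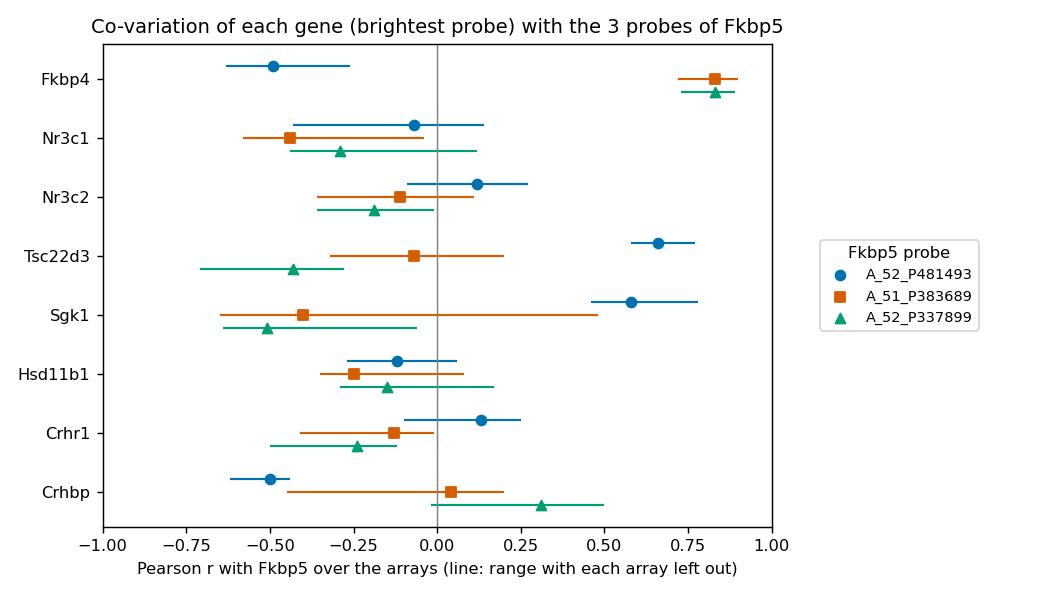
Pearson r of the brightest probe of each of 8 genes (rows) with each of the 3 Fkbp5 probes (colours and shapes) over the arrays, with lines from the lowest to the highest r when 1 array is left out. Fkbp4 is at -0.49 for A_52_P481493 and at 0.83 for both other probes, while Tsc22d3 and Sgk1 are positive for A_52_P481493 alone.

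The other 2 Fkbp5 probes gave a different picture, in which Fkbp4 stood on the opposite side. With A_51_P383689, Fkbp4 gave r = 0.83 (permutation p = 0.00265, rho = 0.83, p = 0.00468) and a slope of 0.88 ± 0.20 (SE, adjusted p = 0.0163), beside 12.5% of 12132 genes called (29.2% at an unadjusted p below 0.05). With A_52_P337899, it gave r = 0.83 (permutation p = 0.00197, rho = 0.82, p = 0.00558) and a slope of 1.06 ± 0.24 (adjusted p = 0.0202), beside 9.89% of genes called (28.6% unadjusted). Fkbp4 was the single gene of the 8 called with either probe. Within slides its r was 0.90 and 0.86. Without the 2 farthest arrays r was 0.51 for A_51_P383689 (exact permutation p = 0.193, n = 8) and 0.64 for A_52_P337899 (exact permutation p = 0.0803, n = 8). Leaving out any 1 array, r stayed at 0.72 or above and at 0.73 or above. Without C10-423 the slope of Fkbp4 was 0.81 (adjusted p = 0.185) and 0.92 (adjusted p = 0.142), so that the call was lost while the slope changed by less than its SE, and the number of genes called fell from 1513 to 0 and from 1200 to 59. For A_52_P337899 the call of Fkbp4 was also lost at slopes of 1.15 without C10-413 (adjusted p = 0.063) and 1.05 without C10-416 (adjusted p = 0.0591). Tsc22d3 gave r = -0.07 and r = -0.43 with these 2 probes, and Sgk1 gave r = -0.40 and r = -0.51.

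The other 2 Fkbp5 probes and Fkbp4 moved with the main axis of difference between the arrays. The first principal component of 10532 genes held 33.6% of their variance and was highest on C10-413 and lowest on C10-423. Its r was 0.87 with A_51_P383689, 0.91 with A_52_P337899 and 0.83 with Fkbp4, beside a median absolute r of 0.497 over the genes. For the brightest Fkbp5 probe it was -0.50, an absolute r above that of 50% of genes, and for Tsc22d3 it was -0.25. With the component as a term in the fit, the slope of Fkbp4 was 0.48 ± 0.39 for A_51_P383689 (adjusted p = 0.491) and 0.57 ± 0.58 for A_52_P337899 (adjusted p = 0.937), and 1 gene and 0 genes were called. What the component stands for was not tested.

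Marker genes of cell types moved with Fkbp5 to different extents, and their part in these relations was not tested. The centred median of the 5 endothelial markers gave r = -0.64 with the brightest Fkbp5 probe, and 3 of the 5 passed the flag in Cy-5 throughout, with a summed Cy-5 signal from 25790 to 52030. The 5 microglial markers, all well above background, gave r = 0.72 and 0.74 with the other 2 probes, with a summed signal from 9279 to 28020. The 5 pituitary markers gave r = 0.56 with the brightest probe and -0.66 with A_52_P337899, but 1 of the 5 was well above background on every array and 1 on none, with a summed signal from 973.6 to 2047. The 5 hippocampus and cortex markers gave r = -0.50 with the brightest probe and 0.53 with A_52_P337899. Neuron and astrocyte markers gave r between -0.11 and 0.15 with all 3 probes. The lists not named here gave r from -0.41 (choroid plexus, brightest probe) to 0.24 (oligodendrocyte, A_52_P337899). The summed signals were not scaled between arrays, and the lowest sum of each list was on C10-434, the dimmest array.

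Among 10532 genes well above background in both dyes on every array, the gene most like the brightest Fkbp5 probe over the 10 arrays was Nfkbia, which encodes the inhibitor of NF-kappa-B and is induced by glucocorticoids. Its r was 0.93, and its ratio went from -1.87 on C10-416, the array lowest in Fkbp5, to -1.09 on C10-425, the array highest in Fkbp5. After Nfkbia came Klk4 (r = 0.91), Rap2b (r = 0.88), Cyp4a10 (r = 0.85) and Sap30 (r = 0.84). The most opposed were Oma1 (r = -0.79), Prrc2b and Vstm5 (both r = -0.77), Plekhb2 (r = -0.75) and Psat1 (r = -0.74). These 10 genes are the extremes of a ranking, and none passed the fit over all genes (adjusted p = 0.857 for each). With the other 2 Fkbp5 probes, Nfkbia gave r = -0.02 and r = -0.43, and the leading genes were Rpusd1 (r = 0.98) for A_51_P383689 and Parvb (r = 0.98) for A_52_P337899.

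**Figure D4:**
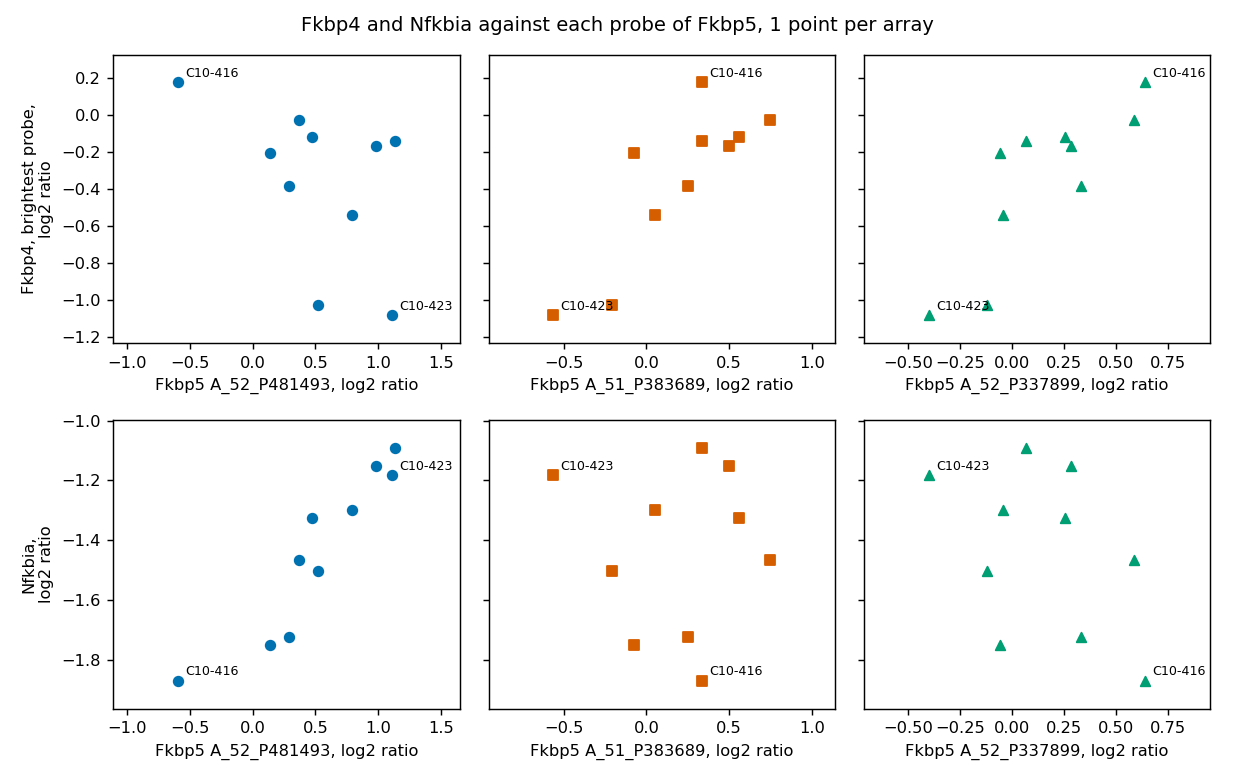
The log2 ratio of Fkbp4 (top) and Nfkbia (bottom) against the log2 ratio of each Fkbp5 probe (columns), with 1 point per array and animals C10-416 and C10-423 named. Fkbp4 rises along A_51_P383689 and A_52_P337899 (both r = 0.83), while Nfkbia rises along A_52_P481493 (r = 0.93) and not along the other 2 probes.

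Other genes induced by glucocorticoids were taken as a list of 20, all measured, of which 15 were well above background in both dyes and had values on all arrays. With the brightest Fkbp5 probe, 9 of the 15 had a positive r and the median r was 0.05, beside 57.4% positive and a median of 0.08 over all genes. After Nfkbia, Map3k6 (r = 0.79), the fuel switch kinase Pdk4 (r = 0.63) and the metallothionein Mt2 (r = 0.38) were the highest. The clock gene Per1 (r = -0.22), the phosphatase Dusp1 (r = -0.15), the transcription factor Klf9 (r = -0.32) and Mt1 (r = -0.33) were among those below 0. With A_51_P383689, by contrast, Per1 gave r = 0.64 and Klf9 gave r = 0.74, while Pdk4 gave -0.40 and Mt2 gave -0.74. The list as a whole again had 9 of 15 positive, with a median r of 0.02. Over all genes, 43.2% were positive with this probe, and the median was -0.11.

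The ratios to Cy-3 of the wider pathway were mixed, as over all genes. Of the 20 induced genes, 7 were called higher, 10 lower and 3 neither way, with a median of -0.29. Over all genes, 41.0% were called higher and 39.8% lower, with a median of 0.04. Txnip was the lowest (-3.83 ± 0.08, adjusted p = 3.87e-13), and the connexin Gjb6 the highest (8.25 ± 0.16), though its Cy-3 signal passed the flag on 6 of 10 arrays. Klf9 (2.28 ± 0.09) and Per1 (1.77 ± 0.09) were higher with Tsc22d3, whereas Nfkbia (-1.44 ± 0.09) and Cdkn1a (-2.59 ± 0.12) were lower with Sgk1.

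The chaperones and co-chaperones of the receptor complex were all measured, 12 of 12, and all were well above background in both dyes. Of these, 6 were called higher, 5 lower and 1 neither way, with a median of 0.31. Among all genes well above background in both dyes, 44.0% were called higher and 43.3% lower. The inducible heat shock protein Hspa1a was the highest (3.01 ± 0.08, adjusted p = 1.43e-12) and the Hsc70-interacting protein St13 the lowest (-2.30 ± 0.08, adjusted p = 1.54e-11). Hsp90aa1 (1.87 ± 0.11) and Hsp90ab1 (0.71 ± 0.14), which carry the immunophilins, were both higher, and the co-chaperone Ptges3, known as p23, was lower (-0.49 ± 0.07). Along the Fkbp5 probe A_51_P383689, Stip1 (r = 0.93) and Stub1 (r = 0.92) lay with Fkbp4, whereas St13 gave r = 0.06 and Hsp90aa1 r = -0.74. Of 10 chaperone genes with values on all arrays, 5 had a positive r with this probe, and the median r was 0. Over all genes, 43.2% had a positive r with it, and the median was -0.11. Along the brightest Fkbp5 probe, Stip1 and Stub1 lay at -0.42 and -0.52.

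Among 14 further FKBP family genes, 6 were called higher, 7 lower and 1 neither way, with a median of -0.16. The shares over all genes were 41.0% higher and 39.8% lower. Fkbp1a, the classic target of the drugs FK506 and rapamycin, and its close relative Fkbp1b were the highest, both at 1.28 (± 0.09 and ± 0.07). Fkbp11 was the lowest at -3.66 ± 0.07, followed by Fkbp10 at -3.39 ± 0.08. Fkbp6 was not well above background in Cy-5 on any array.

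Hormone supply and the stress axis were read less well. Of 9 genes of corticosteroid metabolism, 8 were measured and 2 passed the flag in Cy-5 throughout. These were H6pd, which feeds Hsd11b1 its cofactor and was lower (-2.76 ± 0.07, adjusted p = 1.89e-12), and the reductase Srd5a1, which was higher (0.76 ± 0.09, adjusted p = 5.3e-06). Hsd11b2, which inactivates the hormone, was not well above background in Cy-5 on any array. Of 10 genes of the stress axis, 9 were measured, and 4 of these passed the flag in Cy-5 throughout. Of the 9, 6 were called higher, 2 lower and 1 neither way, beside 41.0% and 39.8% of all genes called higher and lower. The vasopressin gene Avp (4.21 ± 0.11), the second hormone receptor Crhr2 (3.06 ± 0.11) and the precursor gene Pomc (2.29 ± 0.11) were higher with Crhr1 and Crhbp. The urocortin gene Ucn2 had the lowest ratio (-1.52 ± 0.18), with Cy-5 passing the flag on 3 of 10 arrays. Of 9 coregulators and related receptors, 6 were called higher, 2 lower and 1 neither way, beside the same 41.0% and 39.8% of all genes. Pgr and Esr2, both called higher, were not well above background in Cy-3 on any array, and Esr2 not in Cy-5 either. Of the 5 that passed the flag in Cy-5 throughout, the coactivator Ncoa1 was the highest (1.59 ± 0.07) and Ncoa3 the lowest (-0.81 ± 0.08). Over all 9, the estrogen receptor gene Esr1 was the lowest (-0.83 ± 0.14), with Cy-5 passing the flag on 9 of 10 arrays.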

How the data were processed

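Hemibrain RNA of 10 mice (Cy-5) was hybridized against another RNA (Cy-3) on Agilent 4x44k arrays, without dye swap. Per the file headers, spot intensity values were extracted with Feature Extraction 10.10.1.1, and the processed signals used here are background-subtracted and dye-normalised within each array, with no scaling between arrays. The deposited scanner files also give the log10 ratio of these signals, and the authors' table holds their log2 ratio, which was used as an alternative. The methods name LOWESS within each chip. Array totals give no depth, so the number of arrays limits the precision.

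From these, log2 of Cy-5 over Cy-3 was computed per spot, outlier-flagged spots were left out, and spots of a probe were averaged. A gene was read by its brightest probe (highest mean log2 signal over both dyes and all arrays). SDs and correlations of single channels, but not the printed signals, were taken after subtracting each array's 75th percentile of that channel's log2 signal. Of 41174 probes, 27198 had a gene symbol (66.1%). Arrays were grouped by tissue alone. In R 4.3.3 with limma 3.58.1, ratios were tested against 0, the slides of 4 arrays were compared, and each gene was fitted on the Fkbp5 ratio (12132 genes whose brightest probe passed the software's flag for signal above background in Cy-5 throughout), with Benjamini-Hochberg adjustment over all features and a threshold of 0.05. Correlations across arrays had two-sided permutation tests with 100000 resamples, or exact ones below 10 arrays. Scripts were tested on simulated data.

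Alternatives were loess (span 0.3), median centring, normexp (offset 50) and a background floor of 0.5 (offset 50). Normexp and the floor were followed by the same loess step. Further alternatives were the authors' table, the array C10-434 left out, probe filters, slide as a block or term, the Cy-5 level, the mean over probes and arrays left out. Keeping outlier spots, the other 2 Fkbp5 probes and the first component as a term were chosen after seeing the data. The members and gene lists were chosen with earlier results of these data known. The text names all members, the highest and lowest gene of each list, the 5 genes at each end of the ranking by r with Fkbp5, and genes with a role beside a member, some of these chosen after their values were seen. Cyp11a1 and Pgr, the highest of their lists, were not well above background in Cy-3 on any array and have no fold. Promoter windows are from RefSeq (GRCm38.p6).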

Additional observations from a re-analysis of the deposited data

Results flagged for a closer look

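In 4 of 19 probes of the glucocorticoid genes, 1 array lay far from the other arrays by Dixon's test, which by chance marks about 5% of groups. Crhr1 A_51_P229163 was 5.58 on C10-434, the dimmest array, with the next value at 4.56. Crhr1 A_52_P4910 was 3.61 on C10-413, with the next at 2.22. Hsd11b1 was 2.93 on C10-435, with the next at 2.45. Nr3c1 A_52_P63106 was -4.69 on C10-415, with the next at -2.89. No Fkbp5, Fkbp4, Tsc22d3 or Sgk1 probe was marked in this way.

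Among 11 cell marker lists, 3 had an array far from the rest. Each gene was centred on its median over the arrays, and the list value was the median over its genes. The neuron list was 1.097 on C10-434 (next 0.289), the hippocampus and cortex list was -1.623 on C10-434 (next -0.4), and the pituitary list was -0.923 on C10-416 (next -0.211), the array lowest in the brightest Fkbp5 probe. The share of probes well above background was 49.8% in Cy-5 and 61.9% in Cy-3 on C10-434, with the next arrays at 68.2% and 70.3%. The part of these arrays in the results of the genes was not tested, beyond the values without them given above.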

How the results depend on the processing

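Between 10 and 12 of the 19 probes were called higher and between 4 and 6 lower under every alternative that kept all probes, and no probe called by the main setting was called in the opposite direction under any alternative run. The probes Fkbp4 A_52_P585104 and Nr3c1 A_52_P138090 lost their calls under loess, normexp and the background floor, which move the median of all genes up by 0.19, 0.07 and 0.13. Normexp and the floor include the loess step, so these 3 settings are not independent of each other. The Fkbp5 probe A_51_P383689 gained a call under the same 3 settings, and A_52_P337899 under loess and the floor. Over all probes, 8282 were higher and 8104 lower when only probes well above background in both dyes were kept, and 8433 and 9515 with a change of at least 1 on the log2 scale. The slide comparison called 0 probes with normexp, 1 with the background floor and 0 without C10-434, and 0 to 18 when each array was left out in turn, against 31 in the main setting. The number of genes of the 8 with an unadjusted p below 0.05 for the brightest Fkbp5 probe, 1 in the main setting, was 0 under loess, normexp, the background floor, slide as a term and the mean over all probes, and 0 without C10-434 or without the 2 farthest arrays. With A_51_P383689 and A_52_P337899 in place of the brightest Fkbp5 probe, 1513 and 1200 genes were called in place of 0, and 1 of the 8 genes with each, while with the first component as a term 1 gene was called for A_51_P383689. The cause of these shifts was not tested. No paired analysis was possible because the arrays form 1 group. Ratios of dim probes are limited by signal over background and by the offset added to it. For Nr3c1 A_51_P355693 the mean was -0.32 with normexp and -1.1 with loess alone, against -1.30.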
